A study of Homo sapiens with 6 samples.

Results

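The genes described here encode 10 enzymes that make serine and pass its carbon into the folate cycle: PHGDH, PSAT1, PSPH, SHMT1, SHMT2, MTHFD1, MTHFD2, MTHFD1L, MTHFD2L and ALDH1L2. They were taken by gene symbol from tables of 19903 genes, and all 10 were listed in each of the 6 libraries. All 10 also passed the filter used for testing, a mean of at least 1 FPKM over the libraries (fragment numbers divided by transcript length and by the library's total), which kept 12182 protein-coding genes. Messenger RNA had been sequenced from human cells labelled as lung cancer lines at passage 5. A549 with an empty vector, A549 with a vector for malin, H1299 with the empty vector, H1299 with malin, H2030 with the empty vector and H2030 with malin gave 1 library each. A549 and H1299 are long-established human non-small-cell lung cancer lines, and H2030 is the name of a lung adenocarcinoma line. Malin, the product of NHLRC1, is an E3 ubiquitin ligase best known for its work with laforin on glycogen, and its vector is labelled as overexpression. The promoter of the vector and whether the cells were a clone or a pool were not given in the sources used here.

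Cells make serine from the glycolytic intermediate 3-phosphoglycerate in a short pathway of 3 enzymes: PHGDH oxidises it, PSAT1 adds an amino group and PSPH removes the phosphate. The serine hydroxymethyltransferases then move a carbon unit from serine to tetrahydrofolate, leaving glycine, and they do so in the cytosol (SHMT1) and in mitochondria (SHMT2). In mitochondria MTHFD2 or MTHFD2L oxidises that unit and MTHFD1L releases it as formate, or ALDH1L2 oxidises it to carbon dioxide, and in the cytosol MTHFD1 takes formate back up for purine and thymidylate synthesis. Many of these genes are known targets of ATF4, the transcription factor of the amino acid and stress response.

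The vector check and the identity of the libraries come before the results. NHLRC1 stood at 1.21 and 6.82 FPKM in A549 with the empty vector and malin, at 2.85 and 119.2 in H1299, and at 0.18 and 3.69 in the pair labelled H2030. It was higher with malin in all 3 lines, to very different levels, but even its mean difference over the lines, 2.93 (SE 0.60), did not pass (limma adjusted p = 0.927). Fragments from the vector and from the resident gene cannot be told apart in values per gene. The value column of the malin library labelled H2030 carried the abbreviated name of HEK293T cells, which derive from human embryonic kidney, while every label of that library names H2030. The 2 libraries are therefore called the pair labelled H2030, and the comparisons of its members with the other lines are also given without its malin library. Of 6 lung lineage genes listed, 0 to 2 per library reached 1 FPKM, and the surfactant genes were at most at 0.16 FPKM anywhere. The 6 summed to 10.7 and 11 FPKM in A549, 0.77 and 0.91 in H1299, and 3.52 and 4.8 in the pair labelled H2030. NKX2-1 (a lung transcription factor) was listed at 0 in A549 with either vector, while that pair had 1.85 and 3.78 FPKM. FOXA2, of the same list, went the other way, at 10.2 with either vector in A549 and 0.31 and 0.36 in that pair. The 6 epithelial genes summed to 3917 and 3214 FPKM in A549, 952.7 and 952.1 in H1299, and 183.1 and 158.7 in the pair labelled H2030. Keratins carried these sums, while EPCAM, a surface protein of epithelial cells, was highest in that pair, at 8.55 and 5.41 FPKM against at most 1.75 in the others. The 6 kidney developmental genes summed to 7.47 to 12.7 FPKM in A549 and H1299 and to 22.8 and 27.1 in that pair, where PAX8, of the same list, was listed at 0 with either vector. The part of these differences in any result was not tested. Depth, estimated from the spacing of low values, was 8300000 to 10700000 fragments per library.

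The starts of these genes were examined for known regulatory motifs, because 6 of the members were lower together in 1 malin library. RefSeq windows of GRCh38.p14 (250 bases before to 50 after an annotated start) were at hand for 7 of the 10 members, in 11 windows, and not for PSPH, SHMT2 and ALDH1L2. These members without a window are all among the 6, so of the 6 only PHGDH, PSAT1 and MTHFD2 could be searched. Each motif was searched on both strands. The C/EBP-ATF composite element is the motif through which ATF4 pairs with C/EBP proteins. It was searched only as TGATGNAAT, so sites with another last base were not counted. That word occurred in 0.991% of all 35116 windows (1.22% of genes) and in those of 1 member, MTHFD1L. The E-box CACGTG, the motif of MYC and related factors, occurred in 7.26% of windows (8.77% of genes) and in those of 2 members, MTHFD1L and MTHFD1. The following stretches show them in capitals, 5′ to 3′ on the plus strand, at chr6:150866347-150866375, chr6:150866320-150866349 and chr14:64388326-64388355. In MTHFD1L the matches do not overlap each other, and they lie before, across or after the start depending on which annotated start is taken. The MTHFD1 stretch ends 3 bases into its first exon.
MTHFD1L composite element: ccgccggctcTGATGCAATcgcgccgggc
MTHFD1L E-box: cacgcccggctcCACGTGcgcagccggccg
MTHFD1 E-box: ccagtccctaagCACGTGggttgggttgtc

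The antioxidant response core TGACNNNGC, the motif of NRF2, occurred in 13.3% of windows (16.1% of genes) and in those of MTHFD2 and MTHFD2L, in both just after the start. A motif added after the sequences had been read, the CCAAT box of general promoters, occurred in 34.6% of windows (39.7% of genes) and in those of 6 of the 7 members (all but MTHFD2L). SHMT1, MTHFD1 and MTHFD1L hold it too, and they differed within the pair labelled H2030 by only 0.18, -0.10 and -0.25. A link between this motif and the differences was not tested. The stretches below show the CCAAT box for PHGDH, PSAT1 and MTHFD2, which were among the members with the largest differences within that pair. They lie before the start of PHGDH (chr1:119711851-119711879), PSAT1 (chr9:78297000-78297028, chr9:78297030-78297058 and chr9:78297061-78297089) and MTHFD2 (chr2:74198419-74198447 and chr2:74198529-74198557), all on the plus strand.
PHGDH: gagtatttccgtCCAATcaaaaggagact
PSAT1 far: tcagaagcgcgaCCAATggggatgtgagc
PSAT1 middle: ccttcgcgcgaaCCAATtagcgcagggcc
PSAT1 near: cgacagcacgggCCAATggggcgccgact
MTHFD2 far: gctcttctggctCCAATcaaaagcagggc
MTHFD2 near: atgcggcagggaCCAATgggtggcggagg

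PHGDH and the far MTHFD2 stretch share the 11 letters CCAATCAAAAG, which 13 of the 35116 windows hold. The word CCAATGGG, shared by PSAT1, the near MTHFD2 stretch and MTHFD1L, occurred in 2.52% of windows. Both words were picked because members share them, so these shares describe the windows and test nothing. A match is a match of letters only, and no binding was measured.

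In serine synthesis the members differed most between lines at the first step. PHGDH (Entrez gene 26227, chromosome 1, 119711934 to 119744215 of GRCh38.p14) stood at 37.4 and 32.9 FPKM in A549 with the empty vector and malin, at 24.6 and 24.9 in H1299, and at 288 and 166 in the pair labelled H2030. Both libraries labelled H2030 lay above the other 4 without overlap, and PHGDH was the highest of the 10 members there but ranked 5 to 7 among them in A549 and H1299. PSAT1 (gene 29968, chromosome 9, 78297125 to 78330093) stood at 171 and 153 FPKM in A549, 73.3 and 69.9 in H1299, and 189 and 93.4 in the pair labelled H2030. Its A549 values lay between the values of that pair, and H1299 was lowest. PSPH (gene 5723, chromosome 7, 56011064 to 56051444) stood at 25.9 and 22.9 FPKM in A549, 23.4 and 26.5 in H1299, and 33.6 and 21.4 in the pair labelled H2030. The 3 lines overlapped in PSPH, which spanned only 1.57-fold from its lowest to its highest library, against 11.7-fold for PHGDH. The 3 genes summed to 235 and 209 FPKM in A549, 121 and 121 in H1299, and 511 and 281 in the pair labelled H2030.

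**Figure D1:**
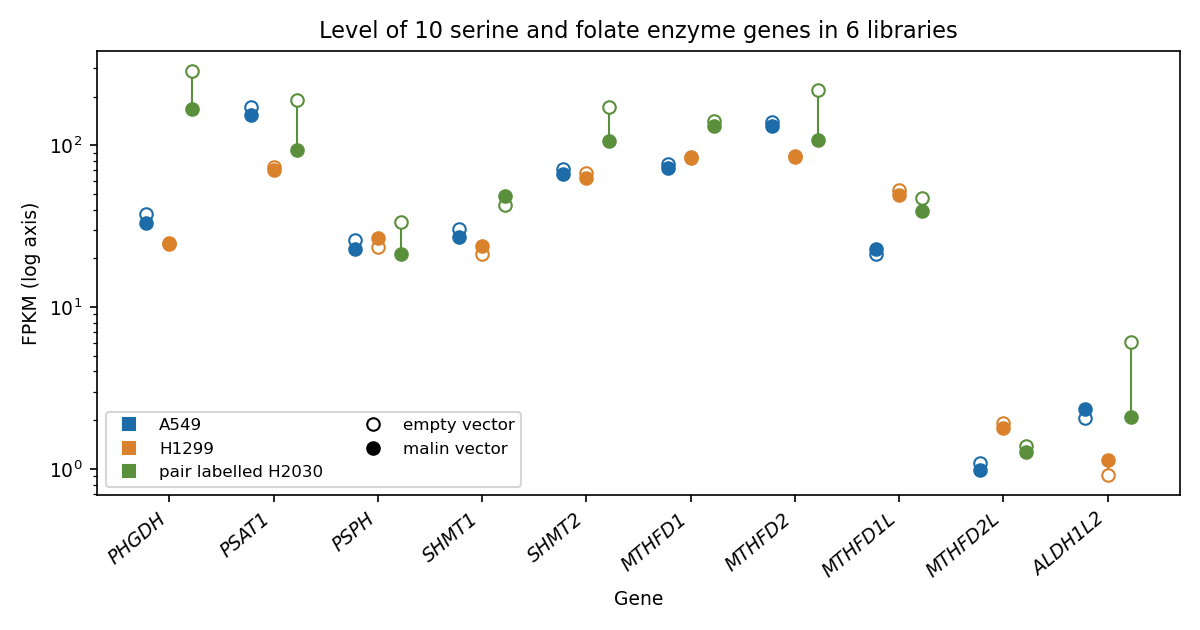
Level of each gene in FPKM on a log axis, with 1 point per library: open circles for the empty vector, filled circles for malin, colours for the lines, and a line joining the 2 libraries of a line. PHGDH in the pair labelled H2030 (288 and 166 FPKM) sits far above the other libraries, while MTHFD2L and ALDH1L2 lie between 0.92 and 6.09 FPKM throughout.

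The serine hydroxymethyltransferases were expressed in every library, the mitochondrial form above the cytosolic one. SHMT1 (gene 6470, chromosome 17, 18327873 to 18363550) stood at 30.4 and 27.0 FPKM in A549 with the empty vector and malin, 21.3 and 23.8 in H1299, and 42.4 and 48.3 in the pair labelled H2030. SHMT2 (gene 6472, chromosome 12, 57229711 to 57234935) stood at 71.3 and 66.7 FPKM in A549, 66.9 and 62.8 in H1299, and 173 and 106 in that pair. For both genes the pair labelled H2030 lay above all other libraries, and SHMT2 held rank 4 of the 10 in every library.

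MTHFD1 (gene 4522, chromosome 14, 64388353 to 64460025), which interconverts folate carbon units in the cytosol, stood at 76.5 and 72.2 FPKM in A549, 83.0 and 84.4 in H1299, and 140 and 131 in the pair labelled H2030. Within every line its libraries were close, at most 1.07-fold apart, and the pair labelled H2030 lay above the other 4. MTHFD2 (gene 10797, chromosome 2, 74198615 to 74217565), the mitochondrial dehydrogenase of growing and tumour cells, stood at 139 and 132 FPKM in A549, 86.3 and 84.4 in H1299, and 219 and 108 in that pair. As for PSAT1, both A549 values lay between the values of the pair labelled H2030, and H1299 was lowest. MTHFD1L (gene 25902, chromosome 6, 150865702 to 151101887), the mitochondrial formate-releasing enzyme, had another order: 21.2 and 22.7 FPKM in A549, 52.8 and 49.5 in H1299, and 47.0 and 39.3 in the pair labelled H2030. H1299 was highest and A549 lowest, with no overlap between the lines.

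The other 2 mitochondrial enzymes were weakly expressed. MTHFD2L (gene 441024, chromosome 4, 74114560 to 74303099), the close relative of MTHFD2, stood at 1.08 and 0.98 FPKM in A549, 1.93 and 1.80 in H1299, and 1.39 and 1.27 in the pair labelled H2030. These values rest on an estimated 23 to 47 fragments per library. In H1299 with the empty vector the 47 fragments carry a 95% Poisson interval of 34.5 to 62.5, and in A549 with the empty vector the 25 fragments carry one of 16.2 to 36.9, for counting error only. ALDH1L2 (gene 160428, chromosome 12, 105019790 to 105084458), the mitochondrial formyl-folate dehydrogenase, stood at 2.07 and 2.34 FPKM in A549, 0.92 and 1.13 in H1299, and 6.09 and 2.08 in that pair. The empty-vector library labelled H2030 stood above the rest, with an estimated 376 fragments (interval 339 to 416) against 153 (130 to 179) with malin, and both H1299 libraries stood below, with 73 (57.2 to 91.8) and 83 (66.1 to 103). FPKM is per transcript length, so these levels can be set against one another, but RefSeq also names pseudogenes after 5 of the members, 7 of them after MTHFD2 and 4 after PSAT1, and how the authors' counting treated near-identical copies was not given in the sources used here.

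With malin against the empty vector, 6 of the 10 members were lower by at least 1.5-fold in the pair labelled H2030 (1 library per vector, no test), and 0 were past that size in A549 or H1299. In the fit over the 3 lines, limma on log2(FPKM+1) with cell line as a block called 0 of the 10 members at an adjusted p of 0.05, where it called 0% of all 12182 genes. At an unadjusted p of 0.05 it called 0 of 10 members and 1.75% of all genes. The largest mean differences were those of PSAT1, -0.41 (SE 0.19, limma adjusted p = 0.927), and MTHFD2, -0.38 (SE 0.20, limma adjusted p = 0.927). PHGDH had -0.32, ALDH1L2 -0.31, SHMT2 -0.30 and PSPH -0.21, and the other 4 members lay between -0.08 and 0.06. The median of the members was -0.25, and that of all genes tested was -0.01. Without the pair labelled H2030, PSAT1 had -0.12, SHMT2 -0.09, PHGDH -0.08 and MTHFD2 -0.06. PSAT1, SHMT2, MTHFD2 and MTHFD2L were lower with malin in all 3 lines, 4 of 10 members where 11.3% of all genes were, and 0 members were higher in all 3, where 11% of all genes were. The MTHFD2L differences are small beside its counting error, and its sign in the pair labelled H2030 turned with quantile normalization (0.022).

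Each line holds 1 library per vector, so the differences within a line have no test. In A549, 0 of 10 members differed by 1.5-fold or more on the FPKM+1 scale, where 1.11% of all genes did. In H1299 it was also 0 of 10, where 0.476% of all genes did. In the pair labelled H2030, 6 of 10 members were at least 1.5-fold lower with malin, where 7.33% of all genes were, and 0 were higher, where 4.28% were. ALDH1L2 differed by -1.20 on the log2 scale, MTHFD2 by -1.02, PSAT1 by -1.01, PHGDH by -0.79, SHMT2 by -0.70 and PSPH by -0.62. The first 3 of these passed 2-fold, a size that 1.6% of all genes reached downwards. Both cytosolic folate enzymes were outside that group, with SHMT1 at 0.18 and MTHFD1 at -0.10, and so were the mitochondrial MTHFD1L at -0.25 and MTHFD2L at -0.07. All 3 serine synthesis genes were among the 6, but PSPH lay just past the limit and dropped out with a pseudocount of 5 (-0.55) or median-of-ratios scaling (-0.57), which left 5. The median of the members in that pair was -0.66 and that of all genes -0.03, against members' medians of -0.09 in A549 and -0.01 in H1299. Every one of these differences rests on the malin library headed with the other line's name, and its part was not tested.

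**Figure D2:**
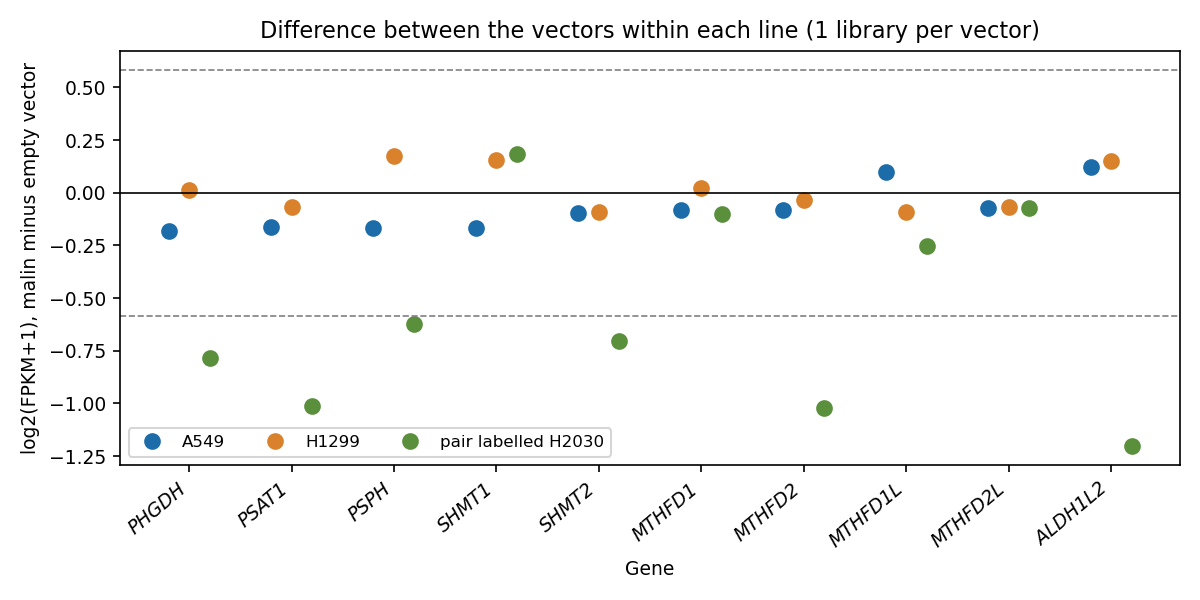
Difference of log2(FPKM+1) between malin and empty vector for each gene, with 1 point per line (1 library per vector, so no error bar). Dashed lines mark 1.5-fold. Points of A549 and H1299 stay within the dashed lines, and 6 points of the pair labelled H2030 lie below, from PSPH at -0.62 to ALDH1L2 at -1.20.

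The lines themselves were compared in the same fit, over 2 libraries per line with the vector as a term. No label says whether the 2 libraries of a line came from independent cultures, and p-values measure only the spread between these libraries. That spread is 1 estimate per gene over all 3 lines. The gap within the pair labelled H2030 thus enters the SE of A549 against H1299 too. Between the vectors MTHFD2 differed by -0.08 in A549, -0.03 in H1299 and -1.02 in that pair, and PHGDH by -0.18, 0.01 and -0.79. No run of A549 against H1299 left the pair out. Between A549 and H1299, limma called 3 of 10 members at an adjusted p of 0.05, where it called 61.6% of all genes, 27.2% as higher in A549 and 34.5% as lower. PSAT1 was higher in A549 by 1.17 on the log2 scale (SE 0.23, limma adjusted p = 0.00612), a 2.24-fold difference. MTHFD1L was lower in A549, with a difference of -1.19 (SE 0.12, limma adjusted p = 0.000434), a 2.27-fold difference in the opposite direction. MTHFD2L was also lower in A549, with -0.50 (SE 0.13, limma adjusted p = 0.0204). MTHFD1L kept its call when any 1 of the 4 A549 and H1299 libraries was left out. PSAT1 did not without the A549 malin library (adjusted p = 0.0505) or the H1299 empty-vector library (0.0594), and MTHFD2L lost it without any 1 of the 4 (0.121 to 0.128). MTHFD2, at 0.66 (SE 0.24, limma adjusted p = 0.0566), and PHGDH, at 0.49 (SE 0.19, limma adjusted p = 0.0699), did not pass, and SHMT2, at 0.09 (SE 0.17), and PSPH, at -0.03 (SE 0.19), lay within their errors.

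Against the pair labelled H2030, A549 was lower in 5 of 10 members by limma, where 67% of all genes were called and 45% were called lower. PHGDH differed by -2.61 (SE 0.19, limma adjusted p = 0.000114), which is 6.10-fold. SHMT2 differed by -0.96 (SE 0.17, limma adjusted p = 0.00322), MTHFD1L by -0.94 (SE 0.12, limma adjusted p = 0.000809) and MTHFD1 by -0.86 (SE 0.09, limma adjusted p = 0.00038). SHMT1 differed by -0.64 (SE 0.12, limma adjusted p = 0.0047), a call that was lost without the A549 malin library (0.0725) or with median-of-ratios scaling (0.0662). The rest, PSAT1, PSPH, MTHFD2, MTHFD2L and ALDH1L2, did not pass. For 4 of them the direction depended on which library of the pair was kept. With 1 library of a line left out, its lone library is assumed to vary like those of the other lines, and the p-values take their spread from those. MTHFD2 was lower in A549, at -0.66, without the malin library labelled H2030 and higher, at 0.30, without the empty-vector one. PSAT1 was -0.17 without the malin library and 0.73 without the empty-vector one, ALDH1L2 was -1.21 and 0.12, and PSPH was -0.45 and 0.18. Without the malin library labelled H2030, PHGDH differed by -2.96, SHMT2 by -1.27, MTHFD1L by -1.07, MTHFD1 by -0.89, SHMT1 by -0.55 and MTHFD2L by -0.20.

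H1299 was lower than the pair labelled H2030 in 7 of 10 members by limma, where 64.7% of all genes were called and 40.9% were called lower. PHGDH again differed most, by -3.09 (SE 0.19, limma adjusted p = 7.59e-05), which is 8.53-fold. Differences of around 2-fold were found in SHMT2, at -1.05 (SE 0.17, limma adjusted p = 0.00237), and SHMT1, at -0.98 (SE 0.12, limma adjusted p = 0.000919). MTHFD1 differed by -0.69 (SE 0.09, limma adjusted p = 0.000953). PHGDH, SHMT1, SHMT2 and MTHFD1 kept their calls without either H1299 library. ALDH1L2, at -1.21 (SE 0.35, limma adjusted p = 0.0229), PSAT1, at -0.89 (SE 0.23, limma adjusted p = 0.0159), and MTHFD2, at -0.84 (SE 0.24, limma adjusted p = 0.0239), lost them without the H1299 empty-vector library, which left 4 calls (adjusted p of 0.166, 0.139 and 0.187). Their values also moved by over 1.5 times with 1 library left out, from -1.88 to -0.54 in ALDH1L2, -1.33 to -0.44 in PSAT1 and -1.32 to -0.36 in MTHFD2, the ends being those without the malin and without the empty-vector library labelled H2030. Without the malin library labelled H2030, PHGDH differed by -3.44, SHMT2 by -1.36, SHMT1 by -0.88, MTHFD1 by -0.73 and PSPH by -0.42. MTHFD1L then had 0.12 and MTHFD2L 0.30. MTHFD1L and MTHFD2L, at 0.25 (SE 0.12) and 0.30 (SE 0.13), pointed the other way and did not pass, but did with median-of-ratios scaling (0.47 and 0.43, limma adjusted p = 0.0114 and 0.0325), and MTHFD2L also with quantile normalization (0.89, 0.00289).

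Deposited FPKM values were not level between the lines. The median of all genes was -0.29 for A549 and -0.22 for H1299 against the pair labelled H2030, and median-of-ratios scaling moved these by 0.29 and 0.20 to 0 and -0.02. PHGDH, SHMT2 and MTHFD1 remained called in both comparisons under that scaling, with smaller differences: -2.28, -0.64 and -0.53 for A549 and -2.87, -0.82 and -0.46 for H1299. PSAT1 then passed as higher in A549 than in that pair (0.61, limma adjusted p = 0.0467). Both libraries labelled H2030 lay above the other 4 in 4 of 10 members, PHGDH, SHMT1, SHMT2 and MTHFD1, where 37.5% of all genes did, so that share was near the background. The empty-vector library labelled H2030 was the highest of the 6 in 7 of 10 members, where 28.9% of all genes were highest there.

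**Figure D3:**
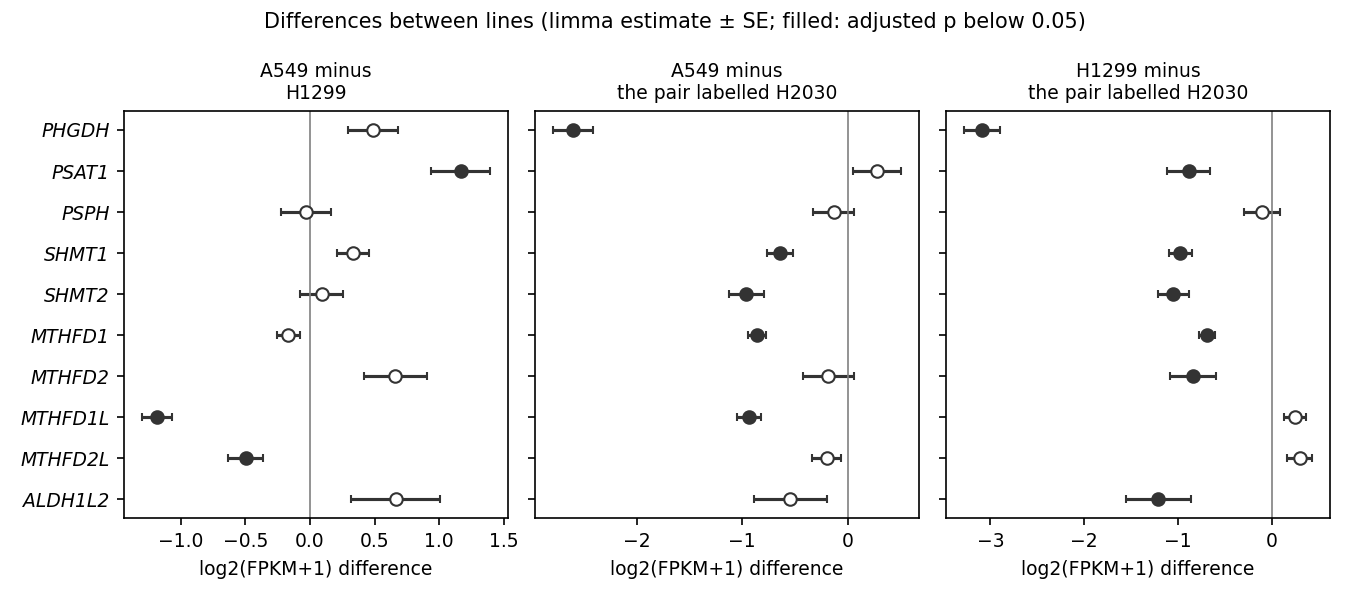
Differences of log2(FPKM+1) between lines for each gene, as limma estimates with SE bars from 6 libraries; filled points have an adjusted p below 0.05. In both comparisons with the pair labelled H2030, PHGDH lies farthest from 0, at -2.61 and -3.09, and between A549 and H1299 PSAT1 (1.17) and MTHFD1L (-1.19) lie on opposite sides.

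Ratios within a library do not depend on its scaling, and they described the balance between steps and compartments. The ratio of PSAT1 to PHGDH was 4.57 and 4.65 in A549 with the empty vector and malin, 2.98 and 2.81 in H1299, and 0.658 and 0.561 in the pair labelled H2030. PSAT1 thus exceeded PHGDH in A549 and H1299 and was below it in that pair, with either vector, so this contrast does not rest on 1 of its libraries. The ratio of PHGDH to PSPH was 1.45 and 1.43 in A549, 1.05 and 0.937 in H1299, and 8.58 and 7.77 in that pair. Here too both libraries of a line lay close together.

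The ratio of mitochondrial SHMT2 to cytosolic SHMT1 was 2.35 and 2.47 in A549, 3.14 and 2.63 in H1299, and 4.07 and 2.19 in the pair labelled H2030. MTHFD2 over MTHFD1 was 1.82 in both A549 libraries, 1.04 and 1.0 in H1299, and 1.56 and 0.823 in the pair labelled H2030. In that pair both ratios of mitochondrial to cytosolic enzyme were lower with malin, and the order of MTHFD2 and MTHFD1 turned. MTHFD1L over MTHFD1 was 0.277 and 0.315 in A549, 0.637 and 0.587 in H1299, and 0.334 and 0.3001 in that pair, so H1299 stood apart. MTHFD2 exceeded its relative MTHFD2L in every library, from a ratio of 44.7 in H1299 with the empty vector to 158 in the empty-vector library labelled H2030.

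**Figure D4:**
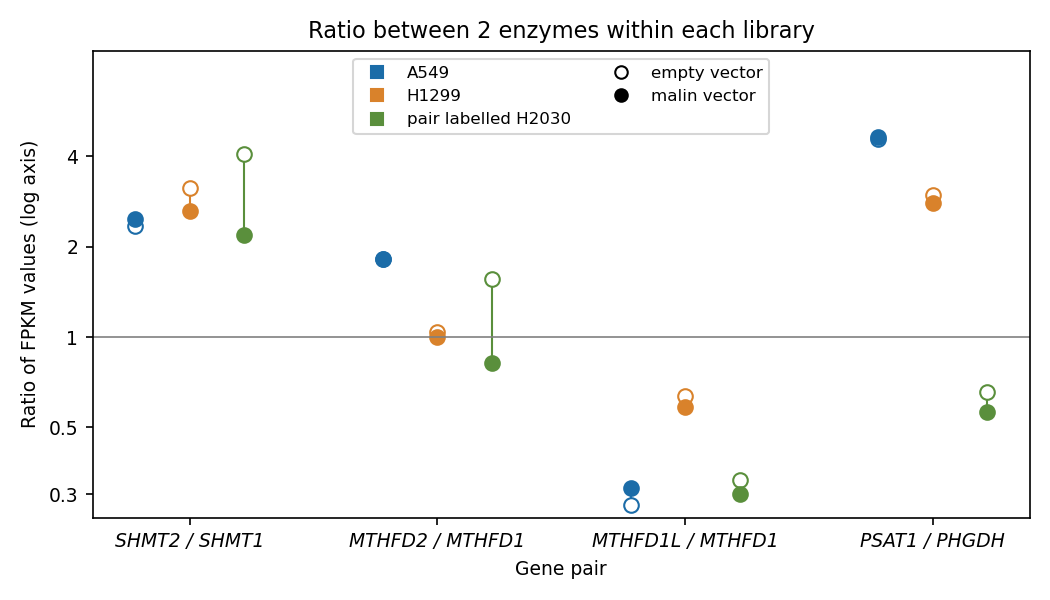
Ratio of FPKM values of 2 enzymes within each library, on a log axis, with open circles for the empty vector and filled circles for malin. PSAT1 over PHGDH is at 4.57 and 4.65 in A549 and below 1 in the pair labelled H2030, and SHMT2 over SHMT1 and MTHFD2 over MTHFD1 differ between the vectors mainly in that pair.

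Other genes of the pathway were read from lists chosen with earlier results of these data known, so that their counts are descriptions. In the fit over the 3 lines 0 genes of any list were called with malin, where 0% of all genes were. Within A549 and within H1299 0 genes of any list passed 1.5-fold, where 1.11% and 0.476% of all genes did. Within the pair labelled H2030, 7.33% of all genes were lower by that size and 4.28% higher, the background for each list below. There 0 of 6 genes of purine synthesis, which takes up formyl-folate, passed 1.5-fold. Of 7 tested genes of folate uptake, retention and reduction, 1 was lower there: SLC46A1, the proton-coupled folate transporter, at 14.8 FPKM with the empty vector and 9.29 with malin. Of 6 other folate enzymes 1 was lower, MTHFS, which returns 5-formyl-folate to the cycle, at 14.1 and 7.13 FPKM.

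Of 8 serine and glycine transporters, 5 were lower and 1 was higher in the pair labelled H2030, where 7.33% and 4.28% of all genes were. SLC1A4, a neutral amino acid carrier that takes serine, stood at 11.9 and 3.45 FPKM there, SLC6A9, the glycine transporter GLYT1, at 10.5 and 4.55, and SLC38A2 at 137 and 75.2. SFXN3, a relative of the mitochondrial serine carrier SFXN1, was higher, at 3.54 and 7.89. Of 7 genes that use or cleave serine and glycine, 2 were lower and 1 was higher. SDSL, of the serine dehydratase family, stood at 7.64 and 2.73 FPKM, AMT at 3.84 and 1.89, and GLDC, the decarboxylase of glycine cleavage, at 8.92 and 14.8. In the methionine cycle and transsulfuration 1 of 7 was lower, CTH, the last enzyme of cysteine synthesis, at 44.1 and 12.2 FPKM. Of 5 glycolytic genes around 3-phosphoglycerate 2 were higher, PGK1, which makes it, at 159 and 255 FPKM and PGAM1, which uses it, at 247 and 463.

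Among 10 tested regulators known to act on these genes, 2 were lower with malin in the pair labelled H2030. DDIT3 (CHOP) stood at 47.2 and 6.74 FPKM and ATF3 at 171 and 27.8. ATF4 itself stood at 513 and 406 FPKM there, while A549 had 187 and 188 and H1299 had 126 and 124. All 13 of the ATF4 targets listed outside the members were lower by at least 1.5-fold in that pair, where 7.33% of all genes were. In A549 and in H1299 it was 0 of 13. INHBE stood at 19.1 and 0.57 FPKM, NUPR1 at 14.8 and 0.26, CHAC1 at 62.6 and 7.14 and STC2 at 75.0 and 17.4. The members' part in that wider pattern was not tested.

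Between lines, limma called 6 of the 6 purine synthesis genes lower in H1299 than in the pair labelled H2030, where 40.9% of all genes were. In A549, 4 of 6 were called lower than in that pair, where 45% of all genes were. In either comparison 0 were called higher. PPAT, the first committed step, stood at 16.9 and 17.2 FPKM in A549, 17.5 and 17.1 in H1299, and 38.1 and 41.5 in that pair (-1.18 and -1.16, limma adjusted p = 0.000211 and 0.000244). TYMS, the thymidylate synthase, was highest in H1299, at 220 and 222 FPKM. Its A549 values were 128 and 127, and those of the pair were 126 and 108. Of the 13 ATF4 targets, 8 were higher in A549 than in H1299 and 0 lower, where 27.2% and 34.5% of all genes were. SLC7A11, the cystine carrier, differed by 3.84 (SE 0.37, limma adjusted p = 0.000396). The 5 genes whose levels ran closest to PHGDH over the 6 libraries were DHRS13, SYP, KIF1A, TTC39A and RAB11FIP4, with a root-mean-square difference in centred log2(FPKM+1) of 0.131 to 0.204, against the 1.38 by which PHGDH itself varied. The 5 closest to MTHFD2 were TIMM9, DIEXF, CARS, FBXW4 and NT5M, at 0.0989 to 0.111, against 0.467 for MTHFD2 itself. Of the genes nearest PHGDH, 3 were near the floor in A549 and H1299. There KIF1A stood at 0.14 to 0.6 FPKM, TTC39A at 0.14 to 1 and RAB11FIP4 at 0.17 to 0.43. The added 1 narrows their fold differences, so they run close to PHGDH on this scale and not in FPKM folds.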

How the data were processed

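RNA was sequenced from 6 libraries, 1 per cell line and vector. The deposited values are FPKM per gene, as the authors' file headers say. Tools listed by the submitters' processing notes are STAR, Cufflinks, cutadapt and FastQC, with build hg38 and no versions. Strand use was not given in the sources used here. Because FPKM is relative to each library's total, abundant genes can shift all others. No counts were used.

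Groups came from the labels and pairs from the cell line label. Of 19903 genes, 19770 matched RefSeq (GRCh38.p14) by Entrez identifier, 17537 of them protein coding. Protein-coding genes averaging at least 1 FPKM (12182) were kept. The model on log2(FPKM+1) was run in R 4.3.3 by limma 3.58.1 (line and vector as terms, eBayes with trend, 2 residual degrees of freedom, median prior 3.9), with Benjamini-Hochberg adjustment over all of them at 0.05. The script was tested on simulated data. Within a line, 1.5-fold and 2-fold differences on the FPKM+1 scale were counted. Fold changes on that scale understate changes of low genes. Depth was estimated from low FPKM values of genes with transcripts of 600 to 2000 bases, 79.4% to 82.0% of which lay within 0.2 of a whole number of fragments; the step was chosen from the same values. Python 3.11.15, pandas 2.3.3, numpy 2.4.6, scipy 1.17.1 and matplotlib 3.10.9 were used. Alternatives were other pseudocounts, filters and scalings, no block or vector term, no trend, and leaving out libraries.

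The members and all lists were chosen with earlier results of these data known. Named genes were all 10 members, NHLRC1, marker genes of the labelled cell type, up to 4 genes per list and comparison by size among those past its rule, and the 5 nearest patterns of PHGDH and MTHFD2. Values of some genes within this rule are not reported here. The CCAAT motif and the shared words were chosen after the sequences were seen.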

Additional observations from a re-analysis of the deposited data

Results flagged for a closer look

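Members whose difference between malin and empty vector had opposite signs in different lines, with at least 0.1 on the log2(FPKM+1) scale each way, are given here. Each line had 1 library per vector, so the difference between lines was not tested. PSPH had -0.17 in A549 and -0.62 in the pair labelled H2030, but 0.18 in H1299. SHMT1 had -0.17 in A549, but 0.16 in H1299 and 0.18 in that pair. ALDH1L2 had -1.20 in that pair, but 0.12 in A549 and 0.15 in H1299.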

How the results depend on the processing

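Malin against the empty vector gave 0 called members under every alternative run, with no replicate block too, where the block comes from the shared cell line; since at most 1 of all genes was called in any of them, this says nothing about stability. Between A549 and H1299 the 3 called members became 6 with median-of-ratios scaling and 1 to 2 with 1 library left out. Against the pair labelled H2030, leaving out 1 library gave 4 to 9 for A549 (5 with all libraries) and 4 to 8 for H1299 (7 with all). The background moved in these leave-out runs as well. Fewer of all genes were called without a library of A549 or H1299, and more without a library of the pair. Changes in the members' counts there cannot be told apart from that shift. Between A549 and H1299, median-of-ratios scaling called 7537 of 12182 genes, against 7508 in the main run. With median-of-ratios scaling PSPH turned to 0.065 (A549 against H1299), 0.18 (A549 against the pair) and 0.12 (H1299 against the pair), and MTHFD2 to 0.14 (A549 against the pair). With quantile normalization MTHFD2L turned from -0.20 to 0.45 (A549 against the pair) and passed as higher in A549 (limma adjusted p = 0.0339). Signs also turned with a library or line left out. For malin the ranges were -0.40 to 0.0041 in PSPH, -0.0046 to 0.17 in SHMT1, -0.17 to 0.0033 in MTHFD1L and -0.54 to 0.14 in ALDH1L2. For A549 against H1299 they were -0.32 to 0.26 in PSPH and -0.065 to 0.24 in SHMT2. For A549 against the pair they were -0.17 to 0.73 in PSAT1, -0.45 to 0.18 in PSPH, -0.66 to 0.30 in MTHFD2 and -1.21 to 0.12 in ALDH1L2, and for H1299 against the pair -0.42 to 0.21 in PSPH. The call of MTHFD2 in H1299 against the pair was lost with no filter on low values (limma adjusted p = 0.0592) and with median-of-ratios scaling (0.0561), and that of ALDH1L2 with no filter (0.0577) and quantile normalization (0.144). The cause of these changes was not tested. Within a line, the members past 1.5-fold stayed at 0 in A549 and H1299 and at 5 to 6 in the pair, but the background moved more: with pseudocounts of 0.1 and 5 it was 577 and 26 of 12182 genes in A549 (135 with a pseudocount of 1), 399 and 8 in H1299 (58) and 2041 and 567 in the pair (1414). A mean FPKM of at least 5 leaves 8 members. With 1 library per line and vector, no difference within a line can be tested, and MTHFD2L is limited by its depth.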
